A study of Rattus norvegicus with 6 samples.

Results

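Genes that store, import and export iron were followed in cultured mesenchymal stem cells from rat marrow, a stromal cell type that grows attached to the dish. The set was named by 10 gene symbols: Fth1, Ftl1, Tfrc, Slc11a2, Slc40a1, Ireb2, Aco1, Ncoa4, Steap3 and Cp. Of these, 9 stood as symbols in the deposited table of 23091 genes. Slc40a1, ferroportin, had no row under that symbol and was taken from the row described as solute carrier family 40 member 1, which carries a placeholder name. That row was found after the table was opened. It is given beside the other 9 but not counted with them. Identifiers were selected on their summed count: a symbol with more than 1 gene identifier took that with the most counts over the 6 samples, a sum that makes no use of the difference between groups. All 10 genes passed the filter on low counts.

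The cells were labelled wild type, and both groups were kept in neural differentiation medium for 7 days. The 3 CYSP samples received CYSP, an agent that the labels do not spell out, and the 3 CK samples received DMSO. The labels give no strain, age or passage and do not say that the samples are separate cultures or animals. The spread that p-values rest on is thus that of these samples alone and could be technical. Library totals were 15060933 to 17244700 counts. Expression is given as CPM, counts scaled to library size with the TMM method, and as FPKM. The FPKM are the deposited values, which divide by transcript length and do not use the TMM scaling.

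Iron enters cells bound to transferrin through the transferrin receptor, is reduced in the endosome by STEAP enzymes and crosses into the cytosol through the transporter DMT1. Ferritin, a shell of heavy and light chains, stores what is not used. Ferroportin exports iron, with copper ferroxidases such as ceruloplasmin loading it onto transferrin. The iron regulatory proteins IRP1 and IRP2 bind hairpins called iron responsive elements in the messages of ferritin, transferrin receptor, DMT1 and ferroportin. Binding in front of the coding part blocks translation, and binding behind it stabilises the message.

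The hairpin is recognised by its loop of CAGTG and 1 further base and by an unpaired C with 5 bases between C and loop. It is shown here as it reads in Ftl1l1, a light chain copy. The 30 bases are from RefSeq on GRCr8, chrX:136687584-136687613, minus strand, and capitals mark the unpaired C and the CAGTG of the loop.
Ftl1l1: gaggatctgtatcttgCttcaaCAGTGttt
The C, any 5 bases and CAGTGN, searched on the transcribed strand, stood in the first 50 transcribed bases of 1.57% of 33469 RefSeq windows. They stood in none of the windows of the 8 member genes found in that table. Fth1 and Ftl1 had no window there, so the ferritin messages of the set were not searched. An element behind the coding part would lie outside these 50 bases. So would one in front of it but further from the transcription start, so the search cannot show that a member lacks the element. Ftl1l1 itself had few reads and is not among the members.

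CYSP samples had far more message for the ferritin heavy chain, the importer DMT1, the transferrin receptor, ferroportin and ceruloplasmin, and nearly the same level of the ferritin light chain. Cp rose 27.5-fold, Slc40a1 9.88-fold, Fth1 7.7-fold, Slc11a2 5.14-fold and Tfrc 3.16-fold. Ftl1, Steap3 and Ireb2 were within 1.24-fold of CK. Aco1, which encodes IRP1, fell to 0.643 of its CK level and Ncoa4 to 0.851. In edgeR's quasi-likelihood test, with p-values adjusted by Benjamini-Hochberg over 12623 genes, 7 of the 9 symbol-matched members were higher and 2 were lower. Among all tested genes 38.2% were higher, 37.8% lower and 76.1% either, so passing the test sets no gene apart here. With a log2 fold change of at least 1 as well, 4 of the 9 were higher and 0 lower, against 15.2% and 12.7% of tested genes. The median log2 fold change was 0.31 over the 9 members and 0.0046 over all tested genes.

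**Figure D1:**
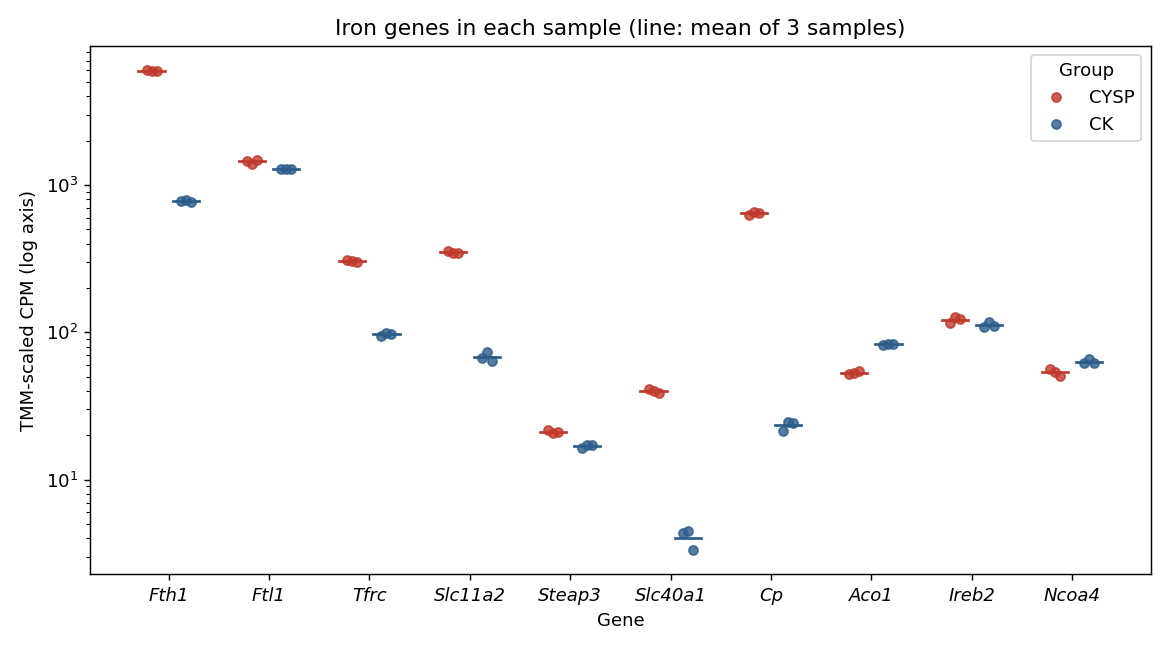
Expression of the 10 iron genes in every sample, in TMM-scaled CPM on a log axis, with CYSP in red left of CK in blue. Each point is a sample and each line the mean of 3. The CYSP and CK points lie far apart for Fth1, Tfrc, Slc11a2, Slc40a1 and Cp and close together for Ftl1, Steap3 and Ireb2.

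Fth1 encodes the heavy chain, the subunit with the ferroxidase centre that oxidises iron on its way into the shell. It had 6048, 5922 and 5954 CPM in CYSP, against 776, 787 and 764 CPM in CK. Every CYSP sample lay above every CK sample, with a log2 fold change of 2.94 (SE 0.023, edgeR adjusted p = 3.06e-85). Of the 9 symbol-matched members 8 had groups that did not overlap, against 77% of all tested genes, made up of 38.8% with CYSP above CK and 38.2% with CYSP below CK. Fth1 took 0.58% ± 0.00364 of all counts in CYSP and 0.0798% ± 0.00124 in CK (SD, n = 3 each). Per length it ranked 8 among all genes by mean FPKM in CYSP and 43 in CK.

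Ftl1 encodes the light chain, which lacks that centre and favours formation of the mineral core. Its values were 1463, 1391 and 1491 CPM in CYSP and 1282, 1277 and 1277 CPM in CK. The groups did not overlap, but the log2 fold change was only 0.18 (SE 0.025, 95% interval 0.13 to 0.23, edgeR adjusted p = 8.75e-10). In the authors' deposited table the same row had a log2 fold change of 0.089 with an adjusted p of 0.594. Scaled by library size only, without TMM, it was 0.097 (edgeR adjusted p = 2.57e-04), below that 95% interval. The size of this small difference thus depends on the scaling. A larger absolute fold change was found in 80.5% of tested genes for Ftl1, and in 7.02% for Fth1.

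The balance of the ferritin chain messages therefore differed between the groups. Ferritin protein was not measured in these data. Per length, Fth1 had 6543 ± 40.1 FPKM in CYSP and 899.8 ± 14 FPKM in CK, and Ftl1 had 1380 ± 54.1 FPKM in CYSP and 1297 ± 8.8 FPKM in CK (SD, n = 3 each). The FPKM ratio of Fth1 to Ftl1 was 4.75, 4.92 and 4.57 in CYSP, and 0.698, 0.7 and 0.683 in CK. Heavy chain message exceeded light chain message in each CYSP sample and was below it in each CK sample. With the FPKM of all Ftl1 identifiers summed, the ratio was 3.54 ± 0.117 in CYSP and 0.524 ± 0.00665 in CK (SD, n = 3 each).

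**Figure D2:**
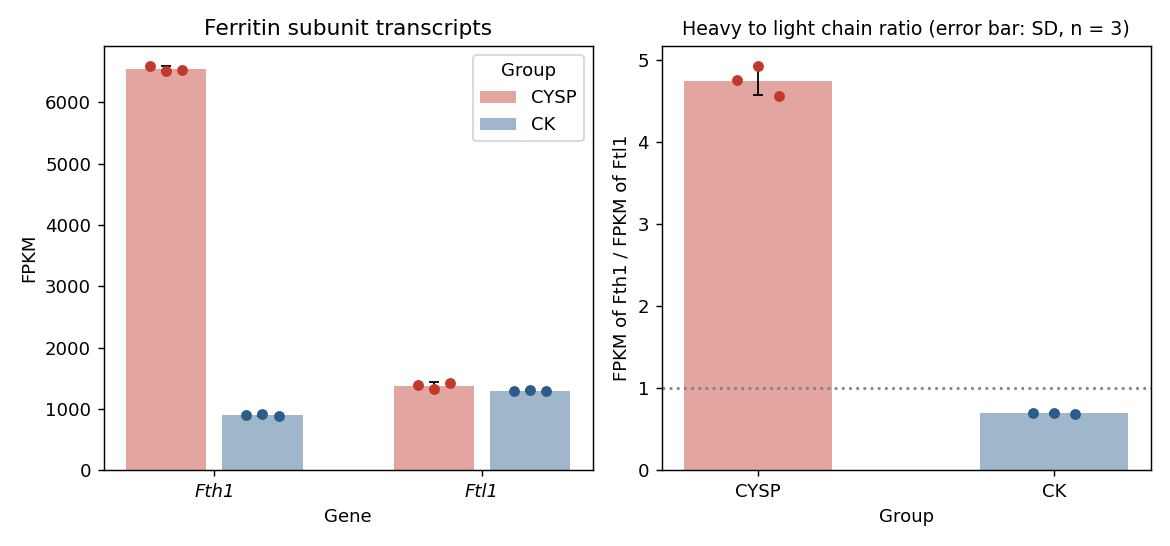
Left, FPKM of Fth1 and Ftl1 in CYSP (red) and CK (blue). Right, the ratio of Fth1 to Ftl1, with a dotted line at 1. Bars are means, error bars are SD of 3 samples and points are samples. The ratio lies between 4.57 and 4.92 in CYSP and between 0.683 and 0.7 in CK.

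Light chain reads were spread over several identifiers, so the level of Ftl1 is uncertain. Of 7 identifiers with the symbol Ftl1, 6 had counts, and the chosen one held 71.5% of them, with 130731 counts over the 6 samples, against 39954 for the next. That next identifier is described as ferritin light chain 2. It had 454 ± 13.1 CPM in CYSP and 380 ± 6.81 CPM in CK (SD, n = 3 each), with a log2 fold change of 0.26 (edgeR adjusted p = 3.82e-12). A further one had 132 ± 8.15 CPM in CYSP and 112 ± 10.9 CPM in CK, with a log2 fold change of 0.24 (edgeR adjusted p = 0.00309). With all Ftl1 identifiers summed, some of them described as ferritin light chain 1-like, the log2 fold change was 0.2. Of 3 Fth1 identifiers only the chosen one had counts. The sources used here do not say how reads matching several copies were assigned.

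Among the importers, Tfrc encodes transferrin receptor 1, which takes up iron-loaded transferrin. It had 308, 307 and 302 CPM in CYSP, against 94.3, 98.9 and 97.4 CPM in CK. The groups lay far apart, with a log2 fold change of 1.66 (SE 0.037, edgeR adjusted p = 5.84e-54). Slc11a2 encodes DMT1, the transporter that moves ferrous iron out of the endosome. Its values were 355, 348 and 346 CPM in CYSP and 66.8, 73.9 and 63.7 CPM in CK. All CYSP samples were above all CK samples (log2 fold change 2.36, SE 0.04, edgeR adjusted p = 7.66e-62). Steap3, the endosomal ferrireductase of erythroid precursors in mice, had 21.6, 20.6 and 21 CPM in CYSP, against 16.5, 17.2 and 17.3 CPM in CK. The groups did not overlap, and its log2 fold change was 0.31 (SE 0.094, edgeR adjusted p = 0.00236), while the authors' deposited table gave it an adjusted p of 0.26.

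Other members of the STEAP family had larger fold changes than Steap3. Steap4, a metalloreductase first known from fat cells, had 38 ± 2.78 CPM in CYSP and 0.484 ± 0.239 CPM in CK (SD, n = 3 each; log2 fold change 6.29, edgeR adjusted p = 4.57e-48). Steap1 had 63.3 ± 1.89 CPM in CYSP and 8.68 ± 0.413 CPM in CK, and Steap2 had 220 ± 2.24 CPM in CYSP and 46.6 ± 1.05 CPM in CK. Steap1 and Steap2 are named here because of their values. Their log2 fold changes were 2.87 and 2.24 (edgeR adjusted p = 7.98e-47 and 6.23e-58).

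Export was represented by ferroportin and the ferroxidases. Slc40a1, the only known iron exporter of vertebrate cells, had 41.3, 39.9 and 38.7 CPM in CYSP, against 4.34, 4.46 and 3.32 CPM in CK. Every CYSP sample was well above every CK sample, with a log2 fold change of 3.3 (SE 0.11, edgeR adjusted p = 6.01e-42). It rests on 1838 counts over the CYSP group and 203 over the CK group. Cp encodes ceruloplasmin, a copper ferroxidase that plasma carries as an acute-phase protein. It had 631, 655 and 645 CPM in CYSP, against 21.5, 24.6 and 24.3 CPM in CK. This was the largest fold change of the 10 genes, with a log2 fold change of 4.78 (SE 0.042, edgeR adjusted p = 5.77e-82). Only 2.82% of tested genes had a larger absolute fold change. Heph, hephaestin, named as the only other tested gene of the export list, is also a multicopper ferroxidase and had 4.51 ± 0.737 CPM in CYSP and 3.33 ± 0.312 CPM in CK (SD, n = 3 each). It did not pass the test (log2 fold change 0.43, edgeR adjusted p = 0.0546), but did so without CYSP replicate 1 (0.0335) and under a stricter count filter (0.0372).

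**Figure D3:**
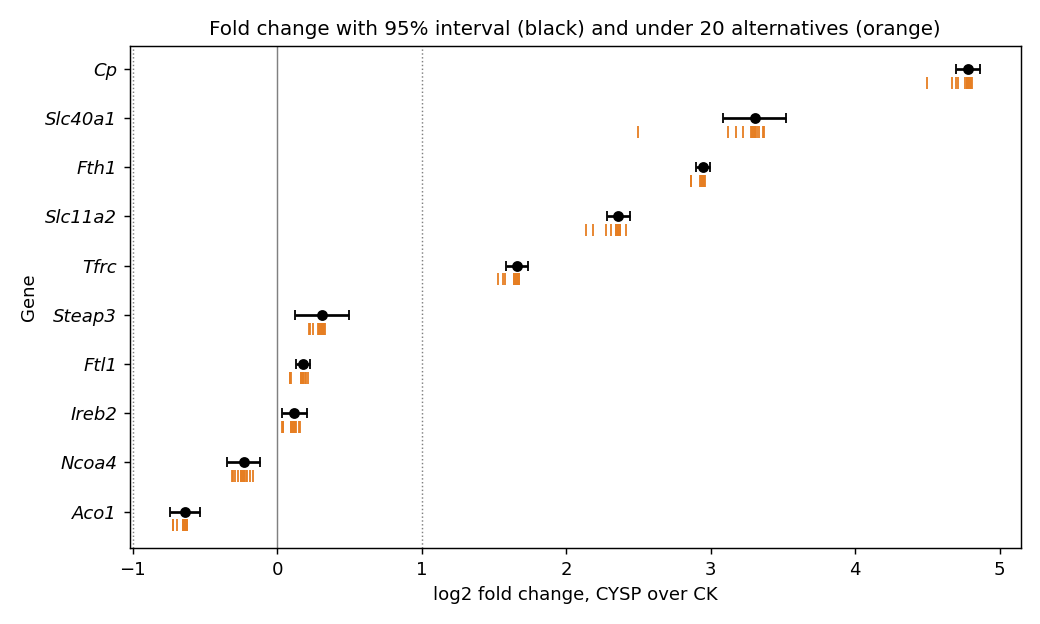
The log2 fold change of each iron gene, CYSP over CK, with its 95% interval (black) and its value under each of 20 alternative analyses (orange ticks). Dotted lines mark log2 fold changes of 1 and -1. Cp, Slc40a1, Fth1, Slc11a2 and Tfrc stay above 1 throughout, and Ireb2 lies nearest to 0.

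Of the regulators, Aco1 and Ncoa4 fell. Aco1 encodes IRP1, which is a cytosolic aconitase when it holds an iron-sulfur cluster and binds RNA when it does not. Its values were 52.3, 53 and 54.6 CPM in CYSP and 82.3, 83.5 and 82.9 CPM in CK. No sample overlapped, and Aco1 fell by 0.64 on the log2 scale (SE 0.052, edgeR adjusted p = 9.78e-19). Ireb2 encodes IRP2, which is degraded when iron is plentiful. It had 116, 127 and 124 CPM in CYSP, against 109, 118 and 111 CPM in CK, and the lowest CYSP sample lay below the highest CK sample. The log2 fold change was 0.12 (SE 0.044, 95% interval 0.032 to 0.21, edgeR adjusted p = 0.0115). The call was lost in 10 of 20 alternative analyses, among them the leaving out of CK replicate 1 (edgeR adjusted p = 0.073), CK replicate 3 (0.0503) or CYSP replicate 2 (0.0783). With scaling by library size only the log2 fold change was 0.036 (edgeR adjusted p = 0.462). The authors' deposited table gave Ireb2 a log2 fold change of 0.039 with an adjusted p of 0.907.

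Ncoa4 is the receptor that carries ferritin to the lysosome for breakdown, a route called ferritinophagy. Its chosen identifier had 56.7, 54.1 and 50.6 CPM in CYSP, against 62.5, 65.7 and 61.8 CPM in CK. The groups did not overlap, and the gene fell by 0.23 on the log2 scale (SE 0.056, edgeR adjusted p = 1.63e-04). A second identifier carries the same symbol. The chosen one held 5651 counts and 55.2% of the Ncoa4 total, and the other held 4592. The other had 46.3 ± 1.51 CPM in CYSP and 49.1 ± 4.06 CPM in CK (SD, n = 3 each), with a log2 fold change of -0.08 (95% interval -0.21 to 0.04, edgeR adjusted p = 0.217). Summed, they gave -0.17 (edgeR adjusted p = 4.95e-04).

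The order of the levels, compared per length in FPKM, also differed. In CYSP it ran from Fth1 (6543 FPKM) and Ftl1 (1380) to Cp (173), Slc11a2 (98.1), Tfrc (62), Ireb2 (20.4), Ncoa4 (14.9), Aco1 (14.4), Slc40a1 (11.8) and Steap3 (7.75). In CYSP the ranges of Ncoa4 and Aco1 overlapped and no other neighbours did. In CK it ran from Ftl1 (1297 FPKM) and Fth1 (899.8) to Aco1 (23.9), Slc11a2 (21.5), Tfrc (20.9), Ireb2 (19.9), Ncoa4 (18.4), Cp (6.7), Steap3 (6.52) and Slc40a1 (1.28). The CK ranges of Slc11a2, Tfrc and Ireb2 overlapped, as did those of Cp and Steap3. Cp had more FPKM than Slc11a2 and Tfrc in CYSP and less than either in CK. Ncoa4 is placed here by its chosen identifier alone, which held 55.2% of the Ncoa4 counts. Its place in both orders, and its overlap with Aco1 in CYSP, could differ with both identifiers counted.

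Slc40a1 and Fth1 were compared with the rest of the table for similar profiles, as the distance between log2 CPM values centred on each gene's mean over 6 samples. Among 8362 named genes of at least 10 CPM, Cemip2 and Syt17 lay nearest to Slc40a1, at distances of 0.125 and 0.142, and Lum (0.103) and Il1r1 (0.111) lay nearest to Fth1. With only 2 conditions, a small distance says little more than that the fold changes are alike.

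Windows of 250 bases before the transcription start were read for 8 of the 10 genes, with 9 windows in all since Slc11a2 has a pair. Fth1 and Ftl1 had no window and were not searched. They were searched on both strands for ACGTG, a form of the hypoxia response element core, of which other forms were not searched. The other patterns were TGACNNNGC, the core of the antioxidant response element, and TGACGT, the core of the cAMP response element. These motifs stood in 16.6%, 10.1% and 6.95% of 33469 RefSeq windows of the same length. Of the genes that rose, Tfrc had matches. Ncoa4, which fell, had matches too. Both windows are shown so that the matches, in capitals, can be read in place. They are from RefSeq on GRCr8, at chr11:81690319-81690568 on the minus strand for Tfrc and chr16:7401541-7401790 on the plus strand for Ncoa4.
Tfrc: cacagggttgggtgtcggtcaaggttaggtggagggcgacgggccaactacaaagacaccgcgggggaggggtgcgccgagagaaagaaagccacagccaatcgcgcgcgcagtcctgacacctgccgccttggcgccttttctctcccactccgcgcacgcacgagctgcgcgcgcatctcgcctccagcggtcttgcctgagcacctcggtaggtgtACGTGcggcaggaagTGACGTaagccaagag
Ncoa4: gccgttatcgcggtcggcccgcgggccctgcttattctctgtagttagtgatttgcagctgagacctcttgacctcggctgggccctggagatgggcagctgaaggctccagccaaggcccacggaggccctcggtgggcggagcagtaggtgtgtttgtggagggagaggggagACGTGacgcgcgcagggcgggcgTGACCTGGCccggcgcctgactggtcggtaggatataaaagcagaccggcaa
In Tfrc an ACGTG begins 31 bases and a TGACGT 16 bases before the start. In Ncoa4 an ACGTG begins 75 bases before the start and a TGACCTGGC, which matches TGACNNNGC, 52 bases before it. The windows of Cp, Slc11a2, Slc40a1, Steap3, Aco1 and Ireb2 held none of these letters. The motifs were chosen after the fold changes were seen, and a match is not evidence of a bound site.

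Other genes of iron and haem handling were set out in lists, with members left out. The lists were chosen with earlier results of these data known, so their shares describe the chosen genes only. Of 82 genes listed, 81 were matched and 75 tested, of which 46 were higher, 18 lower and 11 did not pass. That is 61.3% higher and 24% lower, against 38.2% and 37.8% of all tested genes, of which 76.1% passed in either direction. Their median log2 fold change was 0.42, against 0.0046 for all tested genes. With a log2 fold change of at least 1 in size, 20 of the 75 were higher and 4 lower, against 15.2% and 12.7% of all tested genes. Nubp1 is not analysed here.

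On the uptake list 11 of 12 tested genes were higher and 0 lower, against 38.2% and 37.8% of all tested genes. The remaining gene, Exoc6, named for missing the threshold, had a log2 fold change of 0.28 (edgeR adjusted p = 0.205). Lcn2, a secreted protein that binds iron carried by siderophores, had 1513 ± 5.41 CPM in CYSP and 3.22 ± 1.04 CPM in CK (SD, n = 3 each; log2 fold change 8.89, edgeR adjusted p = 9.79e-40). Slc39a14, the transporter ZIP14 for iron not bound to transferrin, had 1095 ± 20.8 CPM in CYSP and 133 ± 7.76 CPM in CK (log2 fold change 3.04, edgeR adjusted p = 8.5e-73). The iron chaperones Pcbp1 and Pcbp2, which deliver iron to ferritin and were the only tested genes of the storage list, both fell, with log2 fold changes of -0.54 and -0.26 (edgeR adjusted p = 3.75e-22 and 1.71e-09).

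Hepcidin, the hormone that sends ferroportin to degradation, was not seen: Hamp had 0 counts in every sample. Up to 0.199 CPM, here on the raw library total without TMM scaling, could thus go unseen in the shallowest library. This floor of 3 counts covers counting error only. Of 8 tested genes of the hepcidin axis 4 were higher and 4 lower, against 38.2% and 37.8% of all tested genes. Il6 and Bmp2, inducers of hepcidin in liver, rose, with log2 fold changes of 6.34 and 4.68 (edgeR adjusted p = 1.69e-43 and 2.06e-41). Tmprss6, a protease that dampens this signal in liver, had 1.61 ± 0.518 CPM in CYSP and 0.853 ± 0.275 CPM in CK (SD, n = 3 each). The groups overlapped, and its call (log2 fold change 0.91, edgeR adjusted p = 0.0257) was lost in 7 alternative analyses. Among the 7 were DESeq2 (DESeq2 adjusted p = 0.0931) and the fit with a replicate block (edgeR adjusted p = 0.0537). The leaving out of CK replicate 3 (edgeR adjusted p = 0.144), CYSP replicate 1 (0.101) or CYSP replicate 3 (0.124) also lost it. The activin receptor gene Acvr1 and the erythroid hormone gene Erfe fell, with log2 fold changes of -1.21 and -0.92 (edgeR adjusted p = 3.09e-31 and 3.83e-09).

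Among the regulators of the iron regulatory proteins and of ferritinophagy, Fbxl5, the iron-sensing ligase subunit that marks IRP2 for degradation, had 111 ± 1.75 CPM in CYSP and 89.3 ± 6.26 CPM in CK (SD, n = 3 each; log2 fold change 0.31, edgeR adjusted p = 7.31e-09). Herc2, a ligase that acts on NCOA4, and the autophagy receptor gene Tax1bp1 fell, with log2 fold changes of -0.26 and -0.57 (edgeR adjusted p = 2.65e-08 and 5.64e-23). Of 6 other genes reported to carry iron responsive elements, 4 rose and 1 fell, against 38.2% and 37.8% of all tested genes. Epas1, the hypoxia factor HIF-2 alpha, had 249 ± 5.66 CPM in CYSP and 34.5 ± 5.83 CPM in CK (log2 fold change 2.86, edgeR adjusted p = 2.35e-09). App rose by a log2 fold change of 1.17 and Pfn2 by 0.52, and Cdc42bpa fell by 1.55 on the log2 scale (edgeR adjusted p = 2.48e-55, 1.98e-16 and 1.4e-53).

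Haem genes were split by role, and their counts stand beside 38.2% of all tested genes higher and 37.8% lower. Of 10 tested genes of haem breakdown and transport 6 were higher and 2 lower. Hmox1, the inducible enzyme that frees iron from haem, had 305 ± 11.9 CPM in CYSP and 89 ± 6.93 CPM in CK (SD, n = 3 each; log2 fold change 1.78, edgeR adjusted p = 1.33e-42). Hpx, the haem carrier hemopexin, and Slc48a1, a lysosomal haem exporter, rose by log2 fold changes of 2.88 and 1.21 (edgeR adjusted p = 3.02e-23 and 1.85e-35). The transporter genes Flvcr2 and Flvcr1 fell, by 2.05 and 0.66 on the log2 scale (edgeR adjusted p = 2.13e-20 and 1.23e-06). Of 8 tested haem synthesis genes 5 were higher and 2 lower, with log2 fold changes from -0.39 for Fech, ferrochelatase, to 0.63 for Uros. Fech had an edgeR adjusted p of 2.49e-04 and Uros 1.36e-04.

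Of 25 tested genes of mitochondrial iron and iron-sulfur clusters 15 were higher and 5 lower, against 38.2% and 37.8% of all tested genes. Slc25a37, mitoferrin 1, which carries iron into mitochondria, had 41 ± 0.474 CPM in CYSP and 7.22 ± 1.94 CPM in CK (SD, n = 3 each; log2 fold change 2.49, edgeR adjusted p = 2e-30). Fdxr, ferredoxin reductase, and Nfs1, the cysteine desulfurase that supplies sulfur, rose by log2 fold changes of 2.37 and 1.68 (edgeR adjusted p = 1.57e-20 and 2.51e-34). Abcb8, a mitochondrial transporter, fell by 0.42 on the log2 scale (edgeR adjusted p = 3.37e-04).

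**Figure D4:**
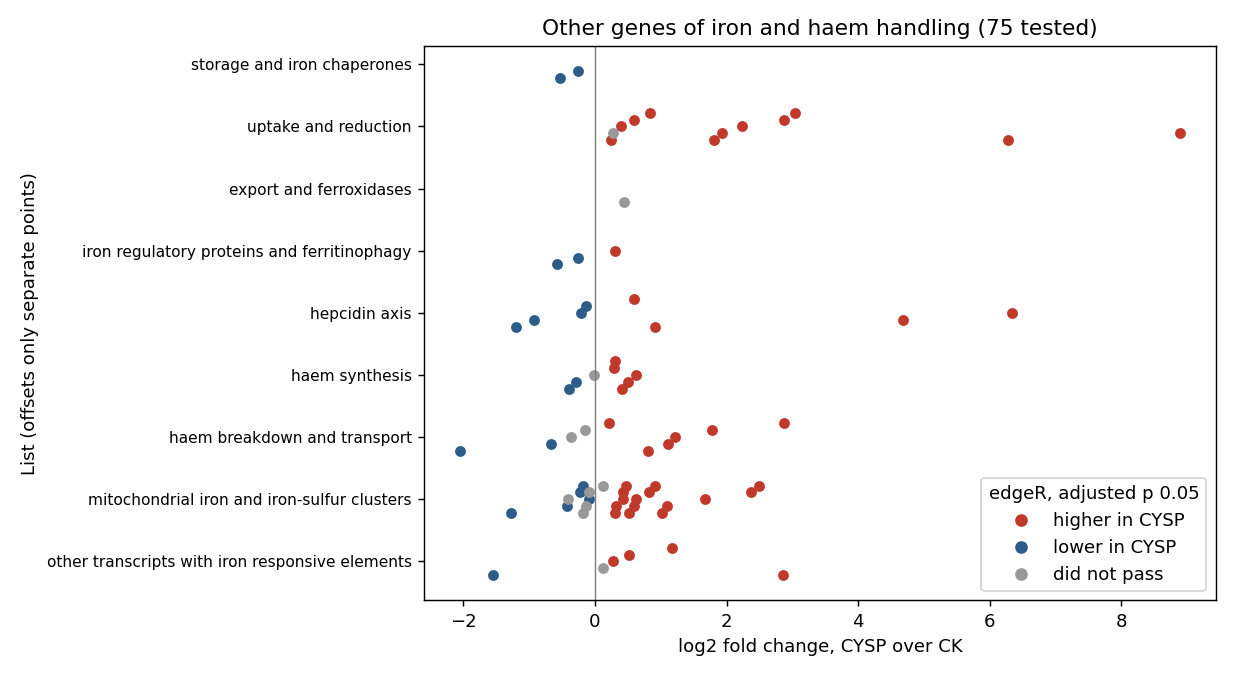
Log2 fold change, CYSP over CK, of the 75 tested genes of the iron and haem lists, with 1 point per gene and red, blue and grey for higher, lower and not past the test. On the uptake list 11 of 12 points are red and none is blue, and Lcn2 lies farthest to the right at 8.89.

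In bulk RNA fewer cells of a type and less RNA per cell cannot be told apart. The stromal markers Col1a1, Thy1 and Pdgfrb were detected in both groups, and of 10 stromal markers 5 rose and 5 fell, with summed levels of 17935 to 19137 CPM over CYSP samples and 70037 to 72271 CPM over CK samples. Most of that sum was collagen: Col1a1 had 9668 ± 436 CPM in CYSP and 40665 ± 960 CPM in CK, and Col1a2 had 5322 ± 153 CPM in CYSP and 25781 ± 349 CPM in CK (SD, n = 3 each). Single markers are named in this paragraph for their values or as defining genes. Markers of other cell types were detected too. All marker counts stand beside 38.2% of all tested genes higher and 37.8% lower. Of 15 tested markers of macrophages, cells rich in ferroportin and Hmox1, 2 rose, 10 fell and 3 did not pass. Their summed level was 654 to 660 CPM over CYSP samples and 1780 to 2015 CPM over CK samples. Ptprc, the leukocyte marker CD45, had 21.8 ± 2.63 CPM in CYSP and 62.4 ± 4.06 CPM in CK (SD, n = 3 each; edgeR adjusted p = 8.88e-31). Cd163, the macrophage receptor for haemoglobin bound to haptoglobin, was higher in CYSP, with 761 counts over the CYSP group and 2 over the CK group. Erythroid markers were near 0: of 8 listed 6 were matched and none passed the count filter, with summed levels of 0.608 to 2.12 CPM over CYSP samples and 0.395 to 0.879 CPM over CK samples. Gata1 was at 0 in every sample. Of 6 fat-cell markers 3 were tested, 2 rose and 1 fell, with summed levels of 605 to 636 CPM over CYSP samples and 73.7 to 80.1 CPM over CK samples, while Plin1 and Cidec had 0 counts in CYSP. Most of the fat-cell sum in CYSP was Adipoq, adiponectin, with 519 ± 13.2 CPM in CYSP and 0.199 ± 0.253 CPM in CK (SD, n = 3 each). Of 9 neuronal markers 4 were tested, 2 rose and 2 fell, with summed levels of 86.8 to 91.6 CPM over CYSP samples and 14.6 to 15.1 CPM over CK samples, and Rbfox3 was at 0. Most of the neuronal sum in CYSP was Snap25, with 48.8 ± 3.16 CPM in CYSP and 0.0201 ± 0.0349 CPM in CK, and Tubb3, with 37.8 ± 2.59 CPM in CYSP and 8.67 ± 1.07 CPM in CK. The part of these cell types in the iron gene results was not tested.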

How the data were processed

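Polyadenylated RNA of 6 samples was sequenced, per the labels' protocols. The tools listed, without roles, are RSEM, HISAT2, StringTie 1.3.1 and fastp 0.18.0, per the submitters' processing notes. Genome build, annotation, counting tool and strand: not given in the sources used here. For each gene and sample the authors deposited raw counts and FPKM, per the file headers; the counts may be rounded estimates. The authors also deposited group mean FPKM, a log2 fold change that equals the log2 ratio of those means, and a p-value and adjusted p-value from a test that is not stated.

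Counts were tested with edgeR 4.0.16 in R 4.3.3 (filterByExpr, TMM, robust glmQLFit, glmQLFTest), with Benjamini-Hochberg adjustment over 12623 genes and a threshold of 0.05. Standard errors come from the fold change and F statistic. The procedure was tested on simulated counts. The estimated coefficient of variation between samples was 0.0393. Alternatives used DESeq2 1.42.0, limma 3.58.1, other scalings and filters, assumed coefficients of variation, each sample left out and a replicate block.

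Members, lists and tests were chosen with earlier results of these data known. Of each list the rule named at most 3 passing genes of at least 1 CPM with the largest fold change in the main direction and 2 in the other, plus Hamp, Il6, Hmox1, Fbxl5 and Epas1. Alad, Ppox and Cpox, which it also named, are given by count only. Some results that the rules would name are not reported here.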

Additional observations from a re-analysis of the deposited data

How the results depend on the processing

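Each of 9 symbol-matched members and Slc40a1 kept its direction under all 20 alternatives, with 179 values on the same side of the threshold and 21 for which the call was lost, 10 of them for Ireb2. Log2 fold changes ranged from 4.5 to 4.81 for Cp, 2.49 to 3.37 for Slc40a1, 2.86 to 2.96 for Fth1, 2.14 to 2.42 for Slc11a2, 1.53 to 1.67 for Tfrc, 0.22 to 0.33 for Steap3, 0.088 to 0.21 for Ftl1, 0.036 to 0.16 for Ireb2, -0.32 to -0.17 for Ncoa4 and -0.73 to -0.62 for Aco1. Counts of higher and lower genes moved by over 1.5 times in 3 settings. With an assumed coefficient of variation of 0.2 they were 3102 and 2801 over all genes, 4 and 1 over the members, and 30 and 7 over the related iron genes. With 0.4 they were 1496 and 1209, 4 and 0, and 15 and 3. With glmTreat against a log2 fold change of 1 they were 1504 and 1217, 4 and 0, and 18 and 3. These settings demand a larger change by construction. In all 3 Ftl1, Ireb2, Ncoa4 and Steap3 lost their calls, and Aco1 lost its call with 0.4 (edgeR adjusted p = 0.424) and with glmTreat (1). The ratio of Fth1 to Ftl1 taken on raw counts was 4.13 in CYSP and 0.607 in CK, since counts are not divided by length. With each sample left out, higher counts were 4706 to 4751 over all genes, 6 to 7 over the members and 43 to 46 over the related genes, and lower counts 4621 to 4687, 2 to 2 and 16 to 18. Replicate numbers gave no sign of pairing: deviations of same-numbered samples correlated at 0.0017, -0.014 and 0.022 over 8535 genes. Samples of different number correlated at -0.0198 to 0.018. A weak pairing could go unseen in this check. With the number as a replicate block 4773 genes were higher and 4712 lower, and the members gave 7 and 2. Depth limits Slc40a1 most among these genes, with 203 counts over the CK group.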
